A study of Mus musculus with 10 samples.

Results

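The cytosolic ribosomal protein genes were taken from the mRNA table of splenic CD8+ cDC1 as all genes whose symbol is Rpl or Rps followed by a number with its letter suffix, or is Rplp0, Rplp1, Rplp2 or Rpsa. This rule uses names and no measured value. It took 81 of 10767 genes, of which 33 encode proteins of the small subunit and 48 proteins of the large subunit. All 79 genes of a textbook set of cytosolic ribosomal protein genes with such names had a row in the table.

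CD11c+MHCII+CD8+CD11b- dendritic cells were sorted from the spleens of untreated mice in 5 sorts, and each sort gave 1 Ppef2+/+ and 1 Ppef2-/- library from 3 pooled mice per genotype. Ppef2-/- mice carry a knock-out first allele of Ppef2, which encodes a phosphatase with EF-hands, in which a trap cassette lies in the intron after exon 4 and loxP sites flank exon 5. They derive from EUCOMM embryonic stem cells injected into C57BL/6 oocytes. All cells of the mice carry the trap, so that an effect within the dendritic cell and one from other cells cannot be told apart here. The mice were young adults, and the genotypes were matched for age and sex.

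Values are normalized counts from which the mean of each sort had been removed. A gene that is high in 1 library of a sort is therefore low by the same amount in the other, and both genotypes have equal SDs by construction. An SD over the 5 libraries of a genotype thus reflects the spread of the within-sort difference and leaves out the spread between sorts. The libraries summed to between 5295568 and 5482319 normalized counts. A single read was worth between 0.464 and 1.50 normalized counts, and the Ppef2-/- library was 2.95, 2.31, 1.61, 0.875 and 0.727 times as deep as its Ppef2+/+ partner in sorts 1 to 5. All 12 cDC1 markers had a row, and their sum lay between 73645 and 77576 in the 10 libraries. Of the markers of other cells, 2 of 10 for B cells, 1 of 10 for T cells, 1 of 8 for neutrophils, 3 of 7 for plasma cells and 0 of 6 for NK cells had a row. For cDC2, 8 of 9 had a row, for pDC 7 of 8 and for macrophages and monocytes 9 of 11. For erythroid cells and platelets it was 5 of 10. Their sums are given further below. Of the plasma cell symbols without a row, Igj is an older name of Jchain, which had one. By sort, from 1 to 5, Ppef2 itself had 243, 196, 170, 162 and 212 normalized counts in Ppef2+/+ cDC1 and 1.00, 3.04, 28.6, 36.7 and 1.00 in Ppef2-/- cDC1, with no overlap between genotypes. It passed in limma with Benjamini-Hochberg adjustment, with an adjusted p of 0.0182, or 0.000121 with the sort as a block. The sort means were removed from the Ppef2 values as well, and the values of 1.00 are at the floor. The Ppef2 values therefore do not give what is left in single Ppef2-/- libraries, where the paper found no reads beyond background.

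Cytosolic ribosomes are built in the nucleolus from ribosomal RNA and ribosomal proteins that are needed in near equal numbers. The mRNAs of ribosomal proteins are among the most abundant of a cell. Most begin with a C followed by a run of pyrimidines, the 5′ terminal oligopyrimidine tract, through which mTORC1 and Larp1 set their translation. Their amount in the cell and their translation can thus move apart, and mRNA sequencing measures the amount alone. Dendritic cells are known to adjust protein synthesis when they mature, and the mice here were untreated.

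The start of the mRNA was read from RefSeq for the 60 members with a start window (GRCm38.p6). A run of pyrimidines of at least 5 bases that opens with C and begins within 5 bases of the annotated start was present in 29 of them, or 48.3%, compared to 23.6% of the other genes of the table with such a window. A few members are shown as 30 bases around the start, 15 on each side, with the longest run of that kind in capitals. The first 4 members have long runs and are abundant, Rpl22l1 and Rpl37a are the members called between genotypes, and Rps27l is the paralogue beside Rps27.
Rpl27a (chr7:109519180-109519209, plus strand): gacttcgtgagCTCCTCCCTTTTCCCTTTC
Rps6 (chr4:86857353-86857382, minus strand): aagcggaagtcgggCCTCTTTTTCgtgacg
Rplp2 (chr7:141447636-141447665, plus strand): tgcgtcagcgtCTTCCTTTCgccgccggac
Rps27 (chr3:90213634-90213663, minus strand): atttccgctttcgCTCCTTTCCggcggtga
Rps27l (chr9:66946071-66946100, plus strand): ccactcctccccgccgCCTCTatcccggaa
Rpl22l1 (chr3:28805493-28805522, plus strand): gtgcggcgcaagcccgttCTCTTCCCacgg
Rpl37a (chr1:72711245-72711274, plus strand): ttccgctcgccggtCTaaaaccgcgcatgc
The run was 20 bases long in Rpl27a, where it goes on past the end of the bases shown, 8 in Rpl22l1, 5 in Rps27l and 2 in Rpl37a. A match is a description of the letters at 1 annotated start and does not show where transcription begins in these cells. In windows from 250 bases before to 50 bases after the start, the motif CCGGAAG, bound by GABPA and other ETS factors, stood on either strand in 36.6% of 71 member windows, 18.8% of the windows of the other genes of the table and 8.86% of all windows. AAGATGGC, the motif of YY1, stood in 11.3%, 4.85% and 2.75% of them.

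The 81 members held 5.59% ± 0.0828 (SD, n = 5) of all normalized counts in the Ppef2+/+ libraries and 5.61% ± 0.0829 (SD, n = 5) in the Ppef2-/- libraries, while they make up 0.752% of the genes. None of them was among the 10 genes with the highest mean. Per kb of their transcript, members had a median level of 4498 normalized counts, compared to 62.4 for all genes of the table. The quartiles were 3022 and 6485, and 77 members lay above 358, the bound of the highest 10% of genes. The small subunit had a median level of 5061 per kb and the large subunit one of 4023.

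Among the highest levels per kb were those of Rplp1 with 12541, Rplp0 with 9624, Rps6 with 9154 and Rps9 with 9053 normalized counts per kb. Rplp0 and Rplp1 form the stalk that recruits elongation factors, together with Rplp2 at 7295 and Rpl12 at 2930 per kb. Rps6 is the small subunit protein phosphorylated by S6 kinases. Rpl5 and Rpl11, which bind Mdm2 together with 5S rRNA when they are free of ribosomes, had 3127 and 4973 per kb. Lengths are those of 1 GENCODE M21 transcript per gene, and reads were counted on RefSeq genes. The long transcripts of Rps20 with 3706 bases, Rpl5 with 2045 and Rps3 with 1908 lower their level per kb.

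**Figure D1:**
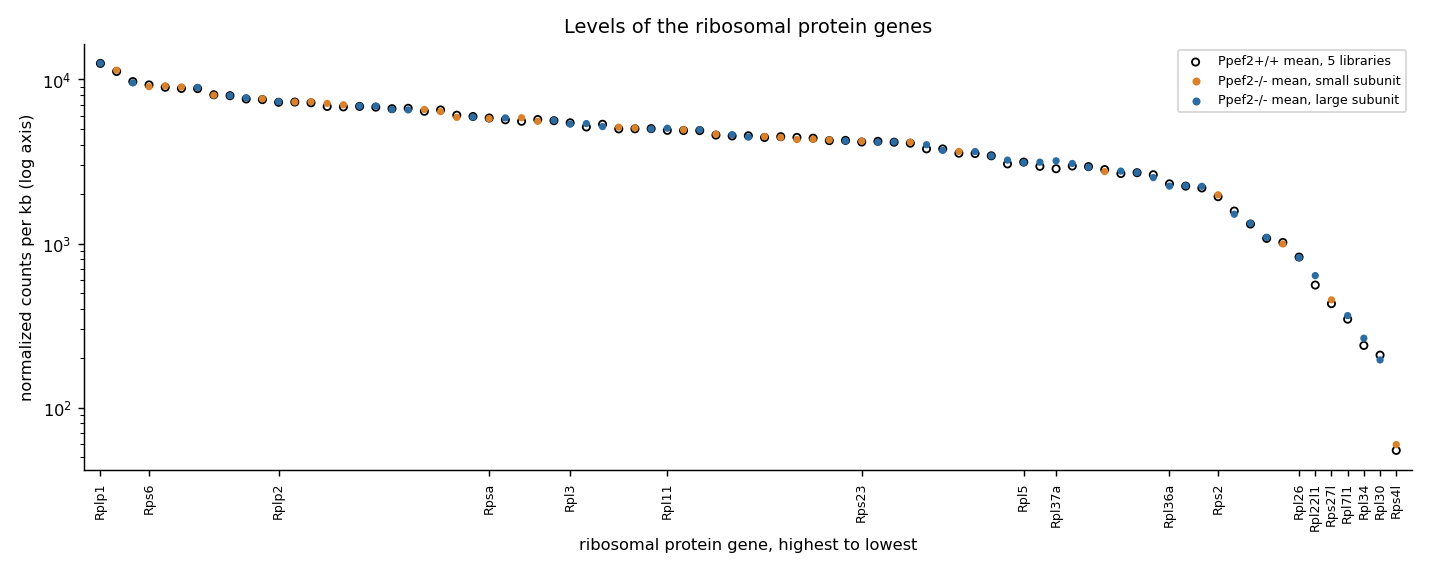
Mean level of each of the 81 members in normalized counts per kb on a log axis, ordered from highest to lowest and labelled for a few members, with open circles for the 5 Ppef2+/+ libraries and filled circles for the 5 Ppef2-/- libraries. The quartiles are 3022 and 6485, and the curve drops steeply over the last members to 57.1 for Rps4l.

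The lowest levels per kb belonged to 3 paralogues and 2 members of the textbook set. Rps4l, a single exon relative of the Rps4 genes, was lowest with 57.1 normalized counts per kb, followed by Rpl30 with 202, Rpl34 with 252, Rpl7l1 with 355 and Rps27l with 442. Of 8 paralogues listed, 4 were measured, and the fourth, Rpl22l1, had 598 per kb. The low values of Rpl30 and Rpl34 stand beside a near-identical copy with a row of its own. Rpl34 had a mean of 121 normalized counts, and its processed pseudogene Rpl34-ps1, which shares 50.6% of the 50-base windows of the Rpl34 transcript, had 1927. Rpl30 had 115 and the processed pseudogene Gm12191, with 47.8% of its windows, had 2208. In the same way, Rpl26 had 433 and Gm15772 had 3234, and Rps27 had 1539 beside 1699 for Rps27rt, which shares 98.6% of its windows. Rpl26 and these copies, apart from Rps27rt, were named after their values were seen.

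**Figure D2:**
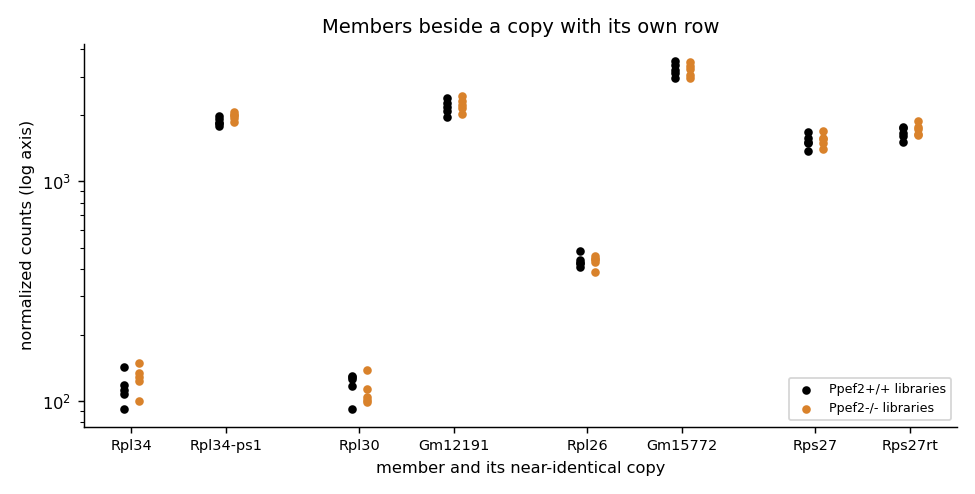
Normalized counts on a log axis in the 5 Ppef2+/+ (black) and 5 Ppef2-/- (orange) libraries for 4 members, each beside a near-identical copy with its own row. The copies of Rpl34, Rpl30 and Rpl26 lie above their members in all 10 libraries, while Rps27 and Rps27rt are of like size.

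Reads from such sequences could be given to either gene, and the values of these members are uncertain. Summed with its copy, Rpl34 had 4267 normalized counts per kb of its own length and Rpl30 had 4076, close to the median of all members. The sums for Rpl26 and Rps27, with 6973 and 9387 per kb, lay above the upper quartile of the members. The member held 5.90% of the sum for Rpl34, 4.95% for Rpl30 and 11.8% for Rpl26. Copies are common in this family. Of the 81 members, 80 shared at least 1 window with an annotated pseudogene, and 28 shared one with another gene of the table. The median member had 40.0% of its windows in no other gene, and 4 members had at least 90%. Across the 81 members, the share of such windows and the log2 level per kb had r = -0.14.

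Within the 5 sorts, the members did not move in one direction. The module median of the Ppef2-/- minus the Ppef2+/+ value, on the scale of log2(normalized count + 1), was 0.04 in sort 1, 0.03 in sort 2, -0.05 in sort 3, 0.13 in sort 4 and -0.08 in sort 5. It was above 0 in 3 sorts and below 0 in 2. The mean of the 5 medians was 0.01 ± 0.08 (SD, n = 5), which is a ratio of 1.01 and smaller than the spread between sorts. The largest single shift was a ratio of 1.09 in sort 4. In this bulk measurement, fewer cells of a type and less RNA per cell cannot be told apart.

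Counted by member, 62 of 81 were higher in Ppef2-/- in sort 1 (49.6% of all genes), 49 in sort 2 (49.0%), 32 in sort 3 (50.2%), 62 in sort 4 (52.3%) and 10 in sort 5 (50.2%). In sort 5, 71 members were thus lower. Both subunits took part, with medians in sort 4 of 0.12 for the small and 0.13 for the large subunit and of -0.08 for both in sort 5. In sort 3 they were -0.10 and -0.03. The median of all genes lay between -0.01 and 0.01 in every sort. Normalization with DESeq2 holds this median near 0, so that it is no separate result about the members. The shifts of the members are relative to the whole table.

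**Figure D3:**
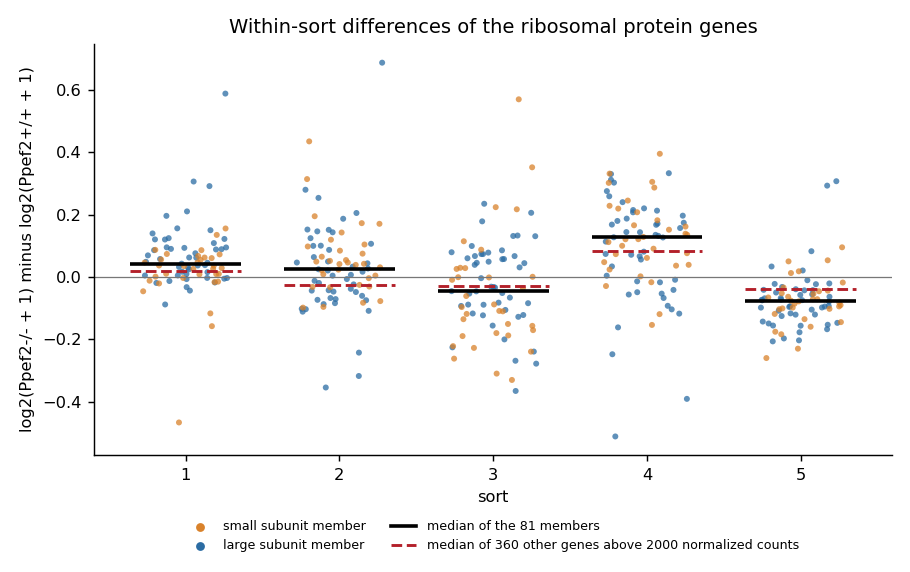
Ppef2-/- minus Ppef2+/+ difference of log2(normalized count + 1) in each of the 5 sorts for the 81 members, with small subunit members in orange, large subunit members in blue, the members' median as a black line and the median of 360 other genes with a mean above 2000 normalized counts as a dashed line. The members' median is highest in sort 4 at 0.13 and lowest in sort 5 at -0.08, and single members of low level lie far from it.

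Other abundant genes had smaller shifts in sorts 1, 3, 4 and 5 and a shift of like size in sort 2. The 360 genes outside the list with a mean above 2000 normalized counts had medians of 0.02, -0.03, -0.03, 0.08 and -0.04 in sorts 1 to 5, with the sign of the members in all sorts but sort 2. The shares of all counts held by the members followed the medians. From sort 1 to sort 5 they were 5.55, 5.54, 5.65, 5.51 and 5.70% in Ppef2+/+ and 5.65, 5.66, 5.55, 5.69 and 5.49% in Ppef2-/-. The Ppef2-/- share was higher in sorts 1, 2 and 4 and lower in sorts 3 and 5, and the genotypes overlapped. The mean difference in share was 0.0178 percentage points ± 0.166 (SD, n = 5).

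The members spread least in sorts 5 and 1, with interquartile ranges of the log2 difference of 0.08 and 0.08, compared to 0.14, 0.19 and 0.19 in sorts 2, 3 and 4. The counting error of a typical member was smaller, with a median of about 0.03 to 0.04 on the same scale in each sort, as estimated from the value of 1 read. Per member, the SD of the difference over the 5 sorts had a median of 0.12, or 3.27 times its counting error, compared to a median SD of 0.11 for the 360 abundant genes and 0.22 for all genes.

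Among the steadiest members by this SD were Rpl3, near the peptidyl transferase centre, with 0.04, and Rpl18, Rpsa and Rpl12 with 0.05 each. The widest were Rps4l with 0.44, Rpl34 with 0.44, Rpl30 with 0.41, Rps27l with 0.27 and Rpl36a with 0.22. Rpl36a is the exception among these in its level, with a mean of 1098 normalized counts. It had log2 differences of 0.14, 0.03, -0.37, 0.14 and -0.18 in sorts 1 to 5, and 14.5% of its windows were in no other gene. Summed with its copy, Rpl34 had an SD of 0.10 and Rpl30 one of 0.20. Summing changed the SD little for Rpl26, from 0.18 to 0.18, and for Rps27, from 0.21 to 0.20.

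Part of the spread between members ran with base composition. Transcript GC content of the members lay between 40.6 and 60.8%. In sort 3, the 27 members with the lowest GC content had a median log2 difference of -0.14 and the 27 with the highest one of 0.03. In sort 4 the order was turned, with 0.16 and 0.06. The other genes of the table in the same ranges of GC content had medians of -0.04 and 0.07 in sort 3 and of 0.06 and -0.06 in sort 4. Across the 81 members, GC content and difference had r = -0.15, -0.11, 0.51, -0.27 and -0.09 in sorts 1 to 5, and across all genes r = 0.03, -0.03, 0.14, -0.17 and 0.00. Genes of 1 library share its preparation and are not independent, and the part of base composition in the differences was not tested.

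**Figure D4:**
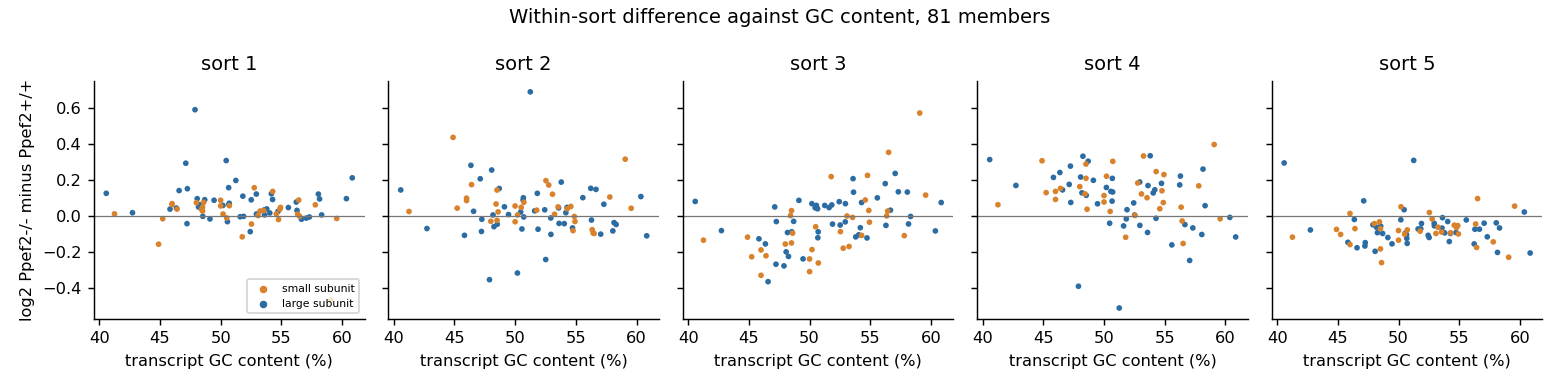
Log2 difference of Ppef2-/- minus Ppef2+/+ within a sort against transcript GC content in percent for the 81 members, 1 panel per sort. The points rise with GC content in sort 3 (r = 0.51) and fall in sort 4 (r = -0.27), while sort 5 is flat and mostly below 0.

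Members with and without a pyrimidine run at their start had medians of the same sign in every sort. The 29 with a run had 0.06, 0.08, -0.05, 0.09 and -0.07 in sorts 1 to 5, and the 31 without one had 0.04, 0.02, -0.03, 0.13 and -0.09. Of 15 other genes with known pyrimidine tracts and a start window, only 46.7% had such a run. The members without a run here are therefore not known to lack the tract. Among the functional groups, Rplp0, Rplp1, Rplp2 and Rpl12 of the stalk departed from the module in sorts 3 and 4, with medians of 0.08 and -0.06. Rplp2 had log2 differences of 0.05, 0.10, 0.10, -0.16 and -0.02, and Rplp1 of -0.01, 0.06, 0.13, -0.07 and -0.12. The difference between the stalk and the other members was not tested. Rpl5 and Rpl11 had medians of 0.07, -0.04, -0.06, 0.18 and -0.06, with the sign of the module in all sorts but sort 2.

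The 6 proteins at the mRNA channel and the decoding site had medians of 0.05, 0.06, -0.05, 0.11 and -0.04. Within this group, Rps2 went the other way in sorts 2 to 5, with log2 differences of 0.00, -0.10, 0.35, -0.15 and 0.10 in sorts 1 to 5. Rps3, at the mRNA entry, was among the steady members, with 0.04, 0.07, 0.00, 0.12 and -0.03, and Rps9 had 0.01, 0.05, 0.09, 0.04 and -0.05. Rps15, Rps23 and Rps3a1 had mean differences of 0.02, 0.02 and 0.00.

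Between genotypes, 2 of 81 members passed an adjusted p of 0.05 in limma without a term for the sort, Rpl37a and Rpl22l1, and both were higher in Ppef2-/-. In all, 0.957% of the genes passed, 0.474% higher and 0.483% lower, so that the members' share of 2.47% rests on 2 genes. With the sort as a block, 0 of 81 members passed, compared to 0.00929% of all genes, which is Ppef2 alone. At an unadjusted p of 0.05, 3 members passed without the block (17.5% of all genes), the third being Rps27a, and 2 with it (4.28%). Since the sort means had been removed, the fit without a block counts 8 residual degrees of freedom where the sorts leave 4. Its p-values and its SEs are too small, and the SEs printed here with log2 differences are from this fit. With the sort as a block, the SE was 0.07 instead of 0.04 for Rpl22l1 and 0.05 instead of 0.03 for Rpl37a.

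Rpl22l1, a paralogue of Rpl22, lies on chromosome 3 from 28805436 to 28807424 on the plus strand and has 4 exons in Rpl22l1-201. From sort 1 to sort 5 it had 316, 314, 321, 294 and 296 normalized counts in Ppef2+/+ and 344, 346, 339, 366 and 364 in Ppef2-/-. All Ppef2-/- values lay above all Ppef2+/+ values. The log2 difference was 0.19 ± 0.04 (SE) with an adjusted p of 0.0476 in limma, and with the sort as a block it had an unadjusted p of 0.0175, an adjusted p of 0.995 and a 95% interval of 0.04 to 0.34.

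Whole reads could be calculated back for Rpl22l1, with 168, 235, 229, 379 and 297 reads in Ppef2+/+ and 557, 598, 387, 399 and 265 in Ppef2-/-. With the sort means put back, its levels were 230, 320, 344, 350 and 296 in Ppef2+/+ and 259, 353, 362, 422 and 363 normalized counts in Ppef2-/-. The genotypes then overlapped, and Ppef2-/- was higher in 5 of 5 sorts, by ratios from 1.05 to 1.23. The counting error of each sort's log2 ratio was 0.10 to 0.13, and the SD of 0.09 over sorts was no larger. Rpl22l1 shares 56.5% of its windows with Gm15421, a pseudogene with a mean of 10.3 normalized counts. Rpl22 itself, named here as its partner after its values were seen, had 1966 ± 77.5 normalized counts in Ppef2+/+ and 1973 ± 77.5 in Ppef2-/- (SD, n = 5).

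Rpl37a, a zinc finger protein of the large subunit, lies on chromosome 1 from 72711290 to 72713813 on the plus strand and has 4 exons in Rpl37a-201. It had 1518, 1568, 1659, 1586 and 1639 normalized counts in Ppef2+/+ and 1858, 1808, 1717, 1790 and 1737 in Ppef2-/-. The genotypes did not overlap, and the difference was widest in sort 1. The log2 difference was 0.16 ± 0.03 (SE) with an adjusted p of 0.0417 in limma, and with the sort as a block it had an unadjusted p of 0.00571, an adjusted p of 0.995 and a 95% interval of 0.05 to 0.27. Of its windows, 61.5% were in no other gene.

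**Figure D5:**
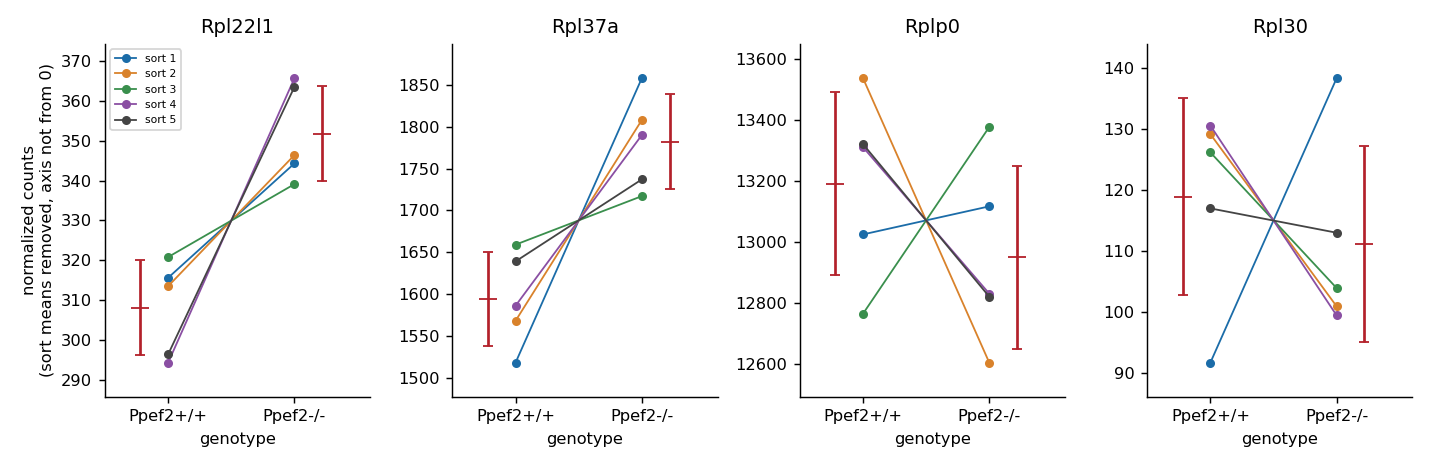
Normalized counts of Rpl22l1, Rpl37a, Rplp0 and Rpl30 in the 5 Ppef2+/+ and 5 Ppef2-/- libraries, with a line joining both libraries of a sort and the mean with its SD (n = 5) beside each group, on axes that do not start at 0. The lines of each gene cross at 1 level because the sort means had been removed, and all 5 rise for Rpl22l1 and Rpl37a while those of Rplp0 and Rpl30 go both ways.

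Rpl37a and Rpl22l1 were the 2 members, 2.47%, with one sign in all 5 sorts and no overlap between genotypes, which is the same condition in this table. Of all genes, 6.18% met it, 3.26% higher and 2.92% lower, and 2 of 81 members is a smaller share. Neither gene passed when any 1 of the 10 libraries was left out, and 0 members passed then. Rps27a, a fusion of ubiquitin to a small subunit protein, had 3573, 3453, 3597, 3371 and 3723 normalized counts in Ppef2+/+ and 3693, 3813, 3670, 3895 and 3544 in Ppef2-/-, with an adjusted p of 0.282.

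For the other members the data set narrow bounds. The mean difference over sorts was within 0.10 of 0 in 77 of 81 members, above 0 in 50 and below 0 in 31. With the sort as a block, the 95% interval of the log2 difference had a median half-width of 0.11, and it lay within 0.20 of 0, a ratio of 1.15, in 72 members. The abundant Rplp0 had 13191 ± 300.1 normalized counts in Ppef2+/+ and 12949 ± 300.1 in Ppef2-/- (SD, n = 5) and was higher in Ppef2-/- in 2 of 5 sorts. Rps6 had 8140 ± 378 and 7934 ± 378.

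The low members allow less. Rps4l, with 221 reads in the 5 Ppef2+/+ libraries and 350 in the 5 Ppef2-/- libraries, had 51.6 ± 8.34 and 56.1 ± 8.34 normalized counts and log2 differences of -0.47, 0.31, 0.57, 0.40 and -0.23. Rps27l, whose transcript is known to be induced by p53, had 214 ± 20.8 and 226 ± 20.8, with differences of -0.16, 0.44, -0.12, 0.31 and -0.08. Rpl30 had 92, 129, 126, 131 and 117 normalized counts in Ppef2+/+ and 138, 101, 104, 99.4 and 113 in Ppef2-/-, with sort 1 opposite to the other 4 sorts. Rpl34 had differences of 0.20, 0.69, 0.06, -0.51 and 0.31. Rpl7l1 had 453 ± 21.7 and 476 ± 21.7 normalized counts.

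Ribosomal proteins whose symbols the rule does not take had medians with the signs of the members in all sorts but sort 2. Of 7 listed, 5 had a row, among them Fau, Gnb2l1, Rpl36al and Rps27rt, and 0 passed in limma at an adjusted or an unadjusted p of 0.05. Their medians in sorts 1 to 5 were 0.04, -0.01, -0.12, 0.19 and -0.10. The number higher in Ppef2-/- was 4, 1, 2, 4 and 0 of the 5, compared to 49.0 to 52.3% of all genes. Rps27rt shares 98.6% of the windows of the member Rps27, so that its values are not separate from those of the members. Single genes departed from the medians, and Fau had log2 differences of 0.04, -0.01, 0.21, -0.01 and -0.05. The 8 proteins around the exit tunnel and the 14 genes linked to Diamond-Blackfan anaemia had 0 calls at either p. The medians in sorts 1 to 5 were 0.04, 0.01, -0.10, 0.17 and -0.09 for the first list and 0.06, 0.03, -0.06, 0.16 and -0.08 for the second.

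The rest of the translation machinery was described by lists of other genes. The 77 mitochondrial ribosomal proteins had medians of 0.04, -0.02, 0.10, 0.07 and -0.11 in sorts 1 to 5, the 54 initiation factors 0.08, -0.03, -0.02, 0.12 and -0.01, and the 13 elongation and termination factors 0.02, -0.06, -0.04, 0.15 and -0.05. For 23 of 24 other genes with known pyrimidine tracts they were 0.03, -0.06, -0.15, 0.13 and -0.07, and for 77 genes of ribosome biogenesis 0.10, -0.02, 0.05, 0.12 and -0.07. All 5 lists were positive in sort 4 and negative in sort 5, like the members. The 22 regulators of ribosomal protein mRNAs, mostly of the mTORC1 branch, had medians of 0.02, -0.03, 0.00, 0.00 and 0.08.

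Without the block, 3 of the 250 genes on these 6 lists, or 1.20%, passed an adjusted p of 0.05 in limma, compared to 0.957% of all genes. Eif4enif1, which carries eIF4E into the nucleus, was higher in Ppef2-/- by 0.18 ± 0.04 (SE, adjusted p = 0.0448), Wdr43, a factor of early pre-rRNA processing, by 0.15 ± 0.03 (adjusted p = 0.0417), and Eif2b2, a subunit of the exchange factor of eIF2, was lower with -0.14 ± 0.03 (adjusted p = 0.0476). All 3 had one sign in 5 of 5 sorts, and with the block 0 genes of these lists passed, each with an adjusted p of 0.995. Next by p were Eif4a2 with 0.10 ± 0.03 (limma adjusted p = 0.0818), the mitochondrial Mrpl22 with -0.41 ± 0.11 (adjusted p = 0.102) and Polr1b of RNA polymerase I with 0.28 ± 0.08 (adjusted p = 0.103). Gspt1, a termination factor, had 0.09 ± 0.03 (limma adjusted p = 0.107), Rrp1b 0.19 ± 0.05 (adjusted p = 0.109), and Pabpc1, the poly(A) binding protein, had -0.09 ± 0.03 (adjusted p = 0.195). Among the remaining genes named by smallest p on their list, Mrps36 had -0.21 and Mrps35 -0.18 on the log2 scale, with limma adjusted p of 0.124 and 0.169. Hbs1l had -0.12, Eefsec 0.08, Eif4b -0.06 and Eef1d -0.09. Of the regulators, the kinase Eef2k had 0.15, the mTOR subunit Mlst8 0.16 and Trp53 0.10. The limma adjusted p of these 7 genes lay between 0.181 and 0.335.

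Genes that are known to respond to cell handling also differed between sorts. The 22 immediate early and heat shock genes had median differences of 0.18, -0.07, 0.27, -0.12 and 0.23 in sorts 1 to 5, with a sign opposite to that of the members in sorts 2 to 5. They summed to between 173313 and 200526 normalized counts in the 10 libraries. In limma without the block, 10 of the 22 had an unadjusted p under 0.05, compared to 17.5% of all genes, and 1 of them, Ier3, passed an adjusted p of 0.05 and was higher in Ppef2-/- by 0.48 ± 0.06 (SE). With the block, 8 of the 22 had an unadjusted p under 0.05, compared to 4.28% of all genes, and 0 passed when adjusted. The summed markers of cDC1 differed by 0.01, -0.05, -0.01, 0.05 and -0.08 on the log2 scale, and 8 of 9 markers of cDC2 by 0.01, -0.03, -0.12, -0.55 and 0.58, with sums between 947 and 1412. For 9 of 11 macrophage and monocyte markers the sums lay between 1345 and 1638 and for 5 of 10 erythroid and platelet markers, all of them globins, between 166 and 310. Among the macrophage and monocyte symbols without a row, Emr1 is an older name of Adgre1, which had one. The 7 measured of 8 pDC markers summed to between 1128 and 1273 in Ppef2+/+ and between 977 and 1119 in Ppef2-/-, with log2 differences of the sum of -0.09, -0.23, -0.01, -0.12 and -0.38 in sorts 1 to 5, so that Ppef2-/- was lower in 5 of 5 sorts. The part of these genes in the differences of the members was not tested.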

How the data were processed

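Single-end reads of 50 bp were aligned by the authors to mm10 (HISAT per the paper, TopHat2 2.0.3 per the submitters' processing notes), counted reads per RefSeq gene in Partek 6.6, normalized with DESeq2 and set a floor of 1. They deposited this normalized count signal for 10767 genes with a genotype mean of at least 10. All 10 columns were used and 0 left out. Sort means had been removed by a step not named in the sources used here: both libraries of a sort summed to a constant in 10721 of 10721 genes without a floor value. The sort labels pair the libraries, whose deviations from the genotype means correlated with r = -1.00 in each sort by construction. p-values measure how the within-sort difference varies over the sorts of pooled mice. The spread of levels between sorts had been removed and is not in them.

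The members, lists and tests were chosen with earlier results of these data known. limma 3.58.1 (R 4.3.3, lmFit, eBayes with trend) was run on log2(normalized count + 1) as a two-sided test, adjusted after Benjamini and Hochberg over all genes, without a term for the sort as in the one-way model of the paper, and with it as an alternative. No p was given for the module. Reads were calculated back from the steps of 557 genes with a mean under 16, for which 98.2 to 99.3% of genes gave whole reads. At a wider tolerance, the next best steps gave 86.9, 88.9, 65.9, 70.2 and 96.8% in sorts 1 to 5. The share alone thus separates the steps least in sort 5. Of 8 members below 1000 normalized counts throughout, 5 had a single solution. Both procedures were tested on simulated data. Transcripts (APPRIS principal, CCDS, then longest coding sequence) were from GENCODE M21, matched for 81 members and 99.4% of genes. Members named were the 5 highest and lowest per kb, those with one sign in 5 sorts, the 5 widest and 5 steadiest, those called, and 4 functional groups, beside the 3 genes of smallest p per list. Some genes that this rule names are not reported here. Counting errors cover counting only. Alternatives were other pseudocounts, filters, centring, no trend, the block, corrections for length and each library or sort left out.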

Additional observations from a re-analysis of the deposited data

Results flagged for a closer look

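Of 31 groups of 5 values tested among the named members, the module and Ppef2, 1 had a value far from the other 4. Rpl7l1, a paralogue of Rpl7, had log2 differences of 0.31 in sort 1 and of 0.02, 0.04, -0.04 and 0.03 in sorts 2 to 5, and the gap of sort 1 to the nearest other sort was 0.753 of the whole range. Chance alone marks about 1 in 20 groups of this size.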

How the results depend on the processing

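The count of 2 members called, without a block, was also 2 with a pseudocount of 0.5 or 10, a mean of at least 50 and centring. It was 1 without a trend and 0 with the sort as a replicate block, and 0 to 0 when each library was left out. The count over all genes was 103, and 1 with the replicate block, 193 without a trend and 1 to 23 when a library was left out. The 3 calls in the lists of other genes were 0 with the replicate block and 0 to 0 with a library left out. The mean of the module medians was 0.01 and lay between 0.00 and 0.02 under all other choices of members, scaling and correction, with -0.01 without sort 4 and 0.04 without sort 5, each less than 1 SD from the main value. The share held by the members was 5.60%, or 6.17% without the 10 highest genes. Of 800 values for 50 named genes, 0 changed sign among called genes, 61 lost their call and 1 gained one. The restriction to members with at least 90% of windows in no other gene, the correction for GC content and the use of sorts 3 to 5 alone were chosen after seeing the data. The planned count of windows over the whole genome was not run, and GENCODE M21 transcripts were used. Values of 1000 or more could not be traced to reads, and lengths rest on 1 transcript per gene.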
